A study of Mus musculus with 8 samples.

Results

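Chromatin regions that were open in CA1 pyramidal neurons over dentate gyrus (DG) granule neurons are described here in the mouse hippocampus. Overlapping ATAC peaks of 4 single-nucleus multiome libraries were merged, and 154785 of the merged regions held a peak in every library. A region was counted as open in CA1 over granule neurons when it had 50 or more Tn5 cuts in CA1 nuclei and when its CPM (cuts in the region, plus 1, per 1000000 cuts of the class in shared regions) was at least 4 times that of granule nuclei in each diet group. This held for 8781 regions, or 5.67% of the shared regions and 7.72% of those with 50 or more CA1 cuts. The regions were thus chosen by their accessibility in CA1 and granule nuclei, and those values are a description and were not tested. The opposite set, open at least 4-fold in granule over CA1 nuclei, held 4112 regions and is used below for comparison.

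The libraries came from hippocampi of wild-type male C57BL/6 pups at postnatal day 21. Their dams, 8 weeks old, received a diet with 2 mg/kg folic acid (moderate, MF) or 20 mg/kg (high, HF) from 2 weeks before mating through pregnancy and lactation. There were 2 libraries per diet (MF1, MF2, HF1 and HF2), each with RNA and ATAC reads from the same nuclei. The study describes the libraries of a diet as biological replicates. The number of pups behind a library is not given in the sources used here, so the spread between libraries may be in part technical.

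CA1 pyramidal neurons send the main output of the hippocampus, whereas granule neurons of the DG receive the cortical input and pass it to CA3 pyramidal neurons. All are excitatory neurons of the medial pallium, and their identities are kept apart largely by transcription factors bound at distal regulatory elements. In such elements nucleosomes are displaced, which leaves the DNA open to the Tn5 transposase used in ATAC-seq. Factors of the POU family read an octamer motif, AP-1 factors such as FOS and JUN respond to neuronal activity, and NEUROD factors read an E-box in excitatory neurons. Prox1 is the granule neuron factor, and Pou3f1 is a POU gene of CA1.

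The nuclei were classed by their RNA alone. CA1 nuclei had 3 or more of 6 genes detected (Fibcd1, Wfs1, Wnt2, Pou3f1, Gm2115 and Gm10754), granule nuclei had 3 or more Prox1 UMIs, and both had Slc17a7, the vesicular glutamate transporter, and at most 1 UMI of Gad2. CA1 nuclei also had at most 1 UMI of Prox1. This gave 178 to 247 CA1 nuclei and 289 to 418 granule nuclei per library. CA1 nuclei had on average 2.99 to 3.47 of 6 further CA1 genes (among them Mpped1, Spink8, Man1a, Dcn and Lefty1) and 0.53 to 0.73 of 7 granule genes (Dsp, C1ql2, Lct, Stxbp6, Glis3, Trpc6 and Plk5), against 0.63 to 0.75 and 3.31 to 3.53 in granule nuclei, and each class thus carried mainly its own genes. Of the 7 inhibitory genes granule nuclei carried 1.43 to 1.46 and CA1 nuclei 0.50 to 0.63. Adarb2, which is among these 7 genes, had 566 to 755 CPM of RNA in granule nuclei and 30.9 to 47.3 CPM in CA1 nuclei. The part of this difference in the results was not tested. In RNA all 6 CA1 genes were higher in CA1 nuclei and all 7 granule genes were lower. CA1 nuclei held more RNA, with a median of 14254 to 15776 UMIs per library against 9534 to 10912.

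The doublet score was over 0.05 in 16.6 and 17.4% (MF) and 18.2 and 21.6% (HF) of CA1 nuclei and in 27.7 to 32.0% of granule nuclei. These nuclei were kept, and without them 14542 regions passed the same rule, among them 8477 of the 8781. The nuclei had also passed the study's limits on genes and mitochondrial share. Its numbers for unique ATAC reads were applied here to cuts, which is not the same limit. With no such limits 625 regions passed, 621 of them among the 8781, and without the upper limit on cuts alone 4866 passed. The number of regions therefore moved with the nuclei admitted. Pooled over libraries, CA1 nuclei gave 24556059 cuts in shared regions and granule nuclei 37701944, and the libraries shared 13 to 27 cell barcodes per pair.

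Sequences of 300 bases around the centre of 4 of these regions are given to show what the set looked like, from the RefSeq copy of the GRCm38.p6 assembly on the plus strand, named by the nearest protein-coding gene. The regions near Tenm2 and Mki67 were among the 8 with the highest CA1 to granule ratio of those with 200 or more CA1 cuts. The others are the regions with the most CA1 cuts near Adgrl2 and Khdrbs3, which are among the genes with the most such regions. Capitals mark a POU octamer (ATGCAAAT, or ATTTGCAT on the other strand) or an AP-1 motif (TGANTCA).
Tenm2, chr11:37277412-37277711: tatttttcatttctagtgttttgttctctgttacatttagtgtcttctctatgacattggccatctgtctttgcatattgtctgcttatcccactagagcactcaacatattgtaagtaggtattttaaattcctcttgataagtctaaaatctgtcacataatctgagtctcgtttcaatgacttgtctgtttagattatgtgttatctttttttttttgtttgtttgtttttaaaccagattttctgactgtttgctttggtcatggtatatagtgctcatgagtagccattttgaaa
Mki67, chr7:135872769-135873068: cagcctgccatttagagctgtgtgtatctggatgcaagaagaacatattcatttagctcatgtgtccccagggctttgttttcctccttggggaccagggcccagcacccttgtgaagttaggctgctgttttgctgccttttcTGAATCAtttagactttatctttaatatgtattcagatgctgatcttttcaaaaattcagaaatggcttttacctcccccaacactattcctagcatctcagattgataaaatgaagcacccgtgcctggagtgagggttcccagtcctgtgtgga
Adgrl2, chr3:149258816-149259115: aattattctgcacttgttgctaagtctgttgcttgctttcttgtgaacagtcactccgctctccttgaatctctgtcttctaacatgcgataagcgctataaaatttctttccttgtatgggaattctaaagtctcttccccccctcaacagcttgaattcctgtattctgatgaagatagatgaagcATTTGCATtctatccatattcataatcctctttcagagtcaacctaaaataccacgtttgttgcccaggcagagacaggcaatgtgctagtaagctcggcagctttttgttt
Khdrbs3, chr15:68795421-68795720: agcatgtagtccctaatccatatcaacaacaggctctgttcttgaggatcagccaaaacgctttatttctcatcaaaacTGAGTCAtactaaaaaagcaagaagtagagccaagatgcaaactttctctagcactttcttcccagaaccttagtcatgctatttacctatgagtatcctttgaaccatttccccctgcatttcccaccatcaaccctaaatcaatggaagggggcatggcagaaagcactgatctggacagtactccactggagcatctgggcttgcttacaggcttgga

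The regions with the highest ratios showed a wide contrast with varied sequence content. The region 41.7 kb from the start of Tenm2, a teneurin of synaptic adhesion, had 6.65 to 9.25 CPM across the CA1 libraries and 0.0967 to 0.519 CPM across the granule libraries, with a ratio of 19.9 in MF and 30.6 in HF, and it held neither of both motifs. The region 75.4 kb from Nrg1, the neuregulin ligand of ERBB receptors, reached 12.7 to 18.7 CPM in CA1 and 0.415 to 1.2 CPM in granule nuclei. Near Mki67, a gene of dividing cells, the region lay 157 kb from the start and had 8.55 to 12.4 CPM in CA1 nuclei against 0.415 to 0.777 CPM. It carried the AP-1 motif shown, as did the region 92.7 kb from Tpra1. The region nearest Got2 lay 1599 kb from that start, which shows how loosely the nearest gene stands for a target. In all 8 regions the libraries of both classes did not overlap, which the rule makes likely.

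Over the whole set the differences were smaller. Taking the lower of both diets, the ratio had a median of 5.26 and reached 27.8. It was under 5 in 3709 regions, from 5 to under 8 in 4173 and at least 8 in 899, of which 20 reached 16. A median region had 174 cuts in CA1 nuclei (50 to 1066) and 39 in granule nuclei, and none was without a granule cut. Granule nuclei at or under the doublet score gave 22927923 of the 37701944 granule cuts in shared regions. The threshold cut through a continuum. The regions nearest Ddit4l, Homer2 and Fst, with 265, 276 and 269 CA1 cuts, passed just above 4-fold, and those nearest Dcn, Abcd2 and Nell1 missed with 3.999 in HF although their MF ratios were 7.23, 7.68 and 7.76.

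The single libraries are those pooled to choose the regions, so their values are a description and not a replication. The median ratio was 6.20 and 6.74 in the MF libraries and 5.86 and 5.94 in the HF libraries. The level was higher in CA1 nuclei in all 8781 regions in MF1, MF2 and HF2 and in 8779 in HF1, and a single library reached 4-fold in 7217 to 7686 of them. Replicate libraries of a diet had a chi-square per degree of freedom of 2.48 in MF and 2.34 in HF over 7583 and 7651 regions with enough cuts. Cuts came mostly in pairs, with 81.1 to 83.1% of the counts per nucleus and peak being even, which raises this value above that of independent counts.

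The regions with the most CA1 cuts were also open in CA3. An intronic region of Iqgap2, a scaffold of the actin cytoskeleton, had 38.1 and 44.5 CPM (MF) and 48.5 and 36.4 CPM (HF) in CA1 nuclei, 6.33, 5.96, 6.9 and 7.74 CPM in granule nuclei in the same order, and 26.3 CPM in pooled CA3 nuclei. An intronic region of Por, the electron donor of cytochrome P450 enzymes, stood at 34.0 to 37.7 CPM in CA1, 6.53 to 8.9 CPM in granule and 11.7 CPM in CA3 nuclei. Near Tut7, an RNA uridylyl transferase, inhibitory nuclei had 21.7 CPM, more than the 12.1 CPM of CA3 nuclei. The CA1 and granule libraries did not overlap in any of these regions, which the rule makes likely.

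Other classes of nuclei were set beside CA1 and granule nuclei. CA3 nuclei and inhibitory nuclei, which were not used to choose the regions, were taken as nuclei with 4 or more of 8 CA3 genes (and at most 1 of the 6 CA1 genes of the rule) or 4 or more of 7 inhibitory genes, with 62 to 87 and 95 to 133 per library. The median level of the 8781 regions was 7.09 CPM in CA1, 3.19 in CA3, 1.08 in inhibitory and 1.03 in granule nuclei. Over all shared regions the medians were 3.79, 4.02, 2.84 and 3.24 CPM. Astrocytes, oligodendrocytes and their progenitors had 0.222, 0.310 and 0.177 CPM in the 8781 regions against 1.04, 1.44 and 1.06 over all shared regions. Microglia had 0 against 0.462 CPM. They gave 6493265 cuts in shared regions and the progenitors 5642514, both fewer than CA1 or granule nuclei. CA3 thus lay between CA1 and the other classes, yet below its own median over all shared regions.

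**Figure D1:**
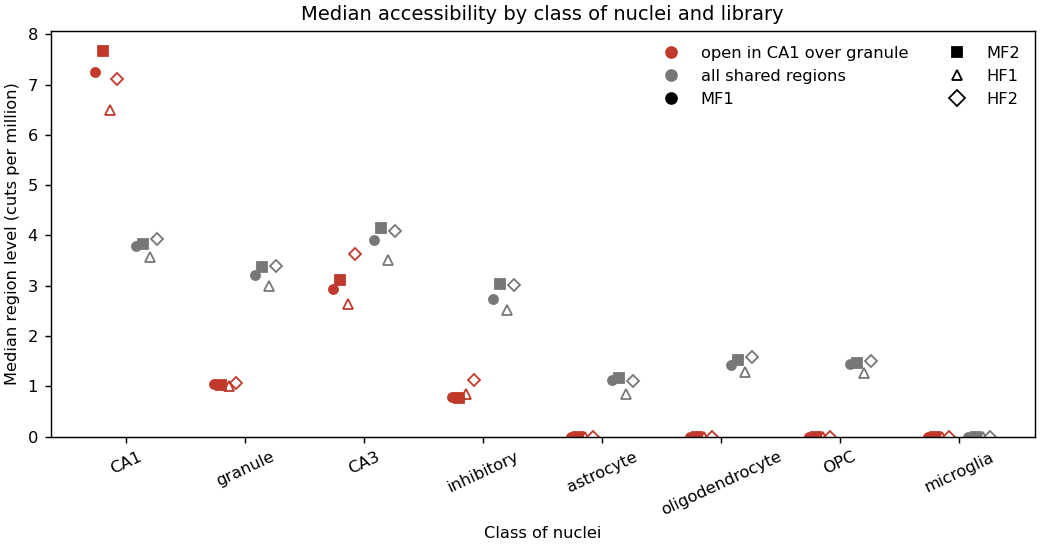
Median level (CPM of cuts) of the 8781 regions open in CA1 over granule neurons (red) and of all shared regions (grey), for each class of nuclei on the horizontal axis and each library (filled circles and squares MF, open triangles and diamonds HF). The red points of CA1 lie at 6.51 to 7.68, those of granule nuclei at no more than 1.06, and those of glia at 0.

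The share of a class's cuts in shared regions that fell in the set gave the same order as the pooled medians, without a ratio. It was 7.12 and 7.64% (MF) and 6.82 and 7.21% (HF) for CA1 nuclei, 3.28 to 3.98% for CA3, 1.39 to 1.72% for inhibitory and 1.06 to 1.17% for granule nuclei. No library of a class reached the range of the next class above, and inhibitory and granule nuclei lay closest to each other.

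CA3 divided the set. In 2096 regions (23.9%) the CA1 level was at least 4 times the CA3 level, in 2622 (29.9%) it was 2 to 4 times as high, and in 4063 (46.3%) less than that. The median CA1 to CA3 ratio was 2.14, against 0.948 over all shared regions. CA3 nuclei were themselves at least 4 times the granule level in 2976 regions (33.9%, against 5.90% of all shared regions), and inhibitory nuclei in 746 (8.50%, against 3.86%). Because the choice fixed a high CA1 and a low granule level, both kinds of ratio are raised by it and are a description. CA3 nuclei carried 1.29 to 1.56 of the 6 further CA1 genes on average, and the part of CA1 nuclei among them was not tested. Of the 8 CA3 genes, CA1 nuclei carried 2.31 to 2.56, granule nuclei 1.81 to 1.91 and CA3 nuclei at least 4.86.

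CA3 against inhibitory nuclei is a contrast that the choice of regions did not use, and it was tested over all shared regions with edgeR's quasi-likelihood test and the library as a block. Of 67732 regions with enough cuts, 26.9% were called higher in CA3 and 21.1% higher in inhibitory nuclei at a Benjamini-Hochberg adjusted p under 0.05. Among the 2026 of the 8781 regions that passed the filter on low cuts, 1399 were called higher in CA3 and 163 higher in inhibitory nuclei. The filter favours regions open in either class. Fitted with no filter, 8780 of the regions gave 2941 calls toward CA3 and 403 toward inhibitory nuclei, where the background was 17.4% and 15.0% of 154776, with a median log2 difference of 1.41 against 0.04 over all shared regions. CA3 exceeded inhibitory nuclei in pooled level in 6959 regions (79.3%), in 57.7% of the granule-over-CA1 set and in 55.2% of all shared regions.

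Most of the 8781 regions were distal. By the GENCODE M21 annotation of GRCm38.p6 the centre was intergenic in 4467 (50.9%), intronic in 3877 (44.2%), in a non-coding or untranslated part of an exon in 312 (3.55%) and in a coding exon in 125 (1.42%). Within 1 kb of a protein-coding start lay 106 regions (1.21%), against 10.8% of all shared regions, and the median distance to a start was 63046 bp against 30493 bp. The granule-over-CA1 set lay farther still, with a median of 79042 bp. Among regions with 50 or more CA1 cuts the share open in CA1 over granule neurons was higher at each step of distance, from 0.690% (106 of 15367) within 1 kb to 19.7% (609 of 3095) beyond 500 kb. The distal regions also had a lower G and C content, 42.3% in the median against 48.0% over all shared regions, and 121 lay on the X chromosome (1.38%, against 1.68%).

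**Figure D2:**
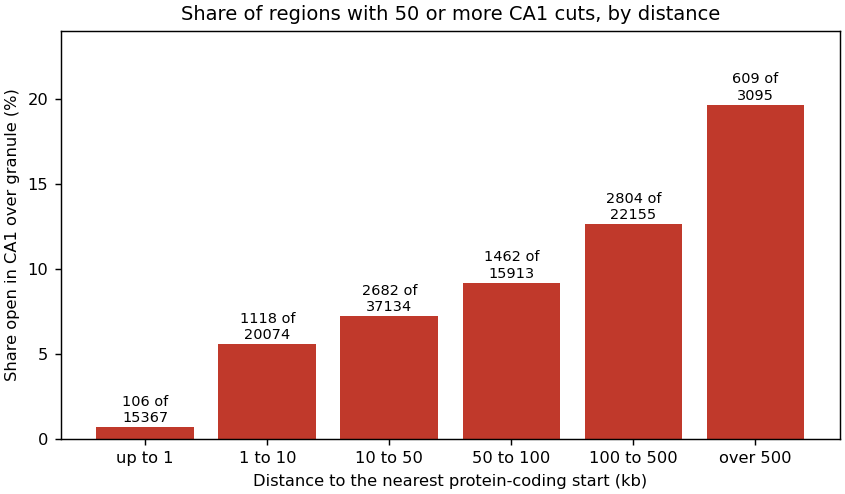
Share of shared regions with 50 or more CA1 cuts that were open in CA1 over granule neurons (vertical axis, %), by distance to the nearest protein-coding start (horizontal axis, kb). The number of such regions and of all regions in each bin stands above its bar, from 106 of 15367 up to 1 kb to 609 of 3095 over 500 kb.

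The spacing of the regions was not compared with that of all shared regions. The nearest other region of the set lay at a median of 62047 bp, and 3866 regions (44.0%) had another within 50 kb. Man1a, a mannosidase of glycan trimming and a CA1 gene, had 14 regions at 35.2 to 983 kb from its start, with 64 to 488 CA1 cuts each.

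Few of the regions were promoters, and some of these lay at the start of a gene of the marker or pathway lists used here. At the start of Mpped1, a metallophosphoesterase gene, CA1 nuclei had 7.32 to 10.8 CPM and granule nuclei 1.3 to 2.8 CPM. At the start of Kcnc2, which encodes the Kv3.2 potassium channel of fast spiking, the values were 9.42 to 12.9 and 1.97 to 3.1 CPM. CA1 values lay above all granule values at both starts, which the rule makes likely.

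Motifs were counted on both strands in 300 bases around the centre of each region, which is the middle of the stretch covered by the peaks of all 4 libraries, or of the region where they share none. Of 20 motifs the POU octamer had the highest ratio of its share to that in shared regions over 1 kb from a start (2.31). It was present in 527 of the 8781 regions (6.00%), in 2.44% of all shared regions, in 2.59% of those over 1 kb from a start and in 1.95% of the granule-over-CA1 set. With no limits on nuclei it was present in 11.8% of the 625 regions. The AP-1 motif was present in 1877 regions (21.4%), in 14.1% of all shared regions and in 9.61% of the granule-over-CA1 set. Against the granule set the octamer was thus 3.08 times and AP-1 2.23 times as common, with 4.23 and 2.63 times in the central 200 bases and 1.79 and 1.51 times over whole regions. A match shows only that these letters are present.

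E-boxes differed in their shares. The CAGCTG E-box was present in 20.7% of the 8781 regions, in 19.5% of the granule-over-CA1 set and in 23.9% of all shared regions. The NEUROD E-box (CAGATG) was present in 45.2% of the 8781 regions, in 42.9% of the granule-over-CA1 set and in 35.7% of all shared regions. The ZBTB18 motif (ACATCTG), which holds the NEUROD E-box on the other strand, was present in 10.4%, 7.25% and 7.17%. The NFI motif (TTGGCA) showed the reverse order, with 23.8% of the CA1 set, 41.2% of the granule set and 25.1% of all shared regions. The ZEB motif (CACCTG) was present in 8.96%, 16.9% and 16.4%, and the CTCF core and SP motifs, which are common at boundaries and promoters, were rarer than in all shared regions in both sets (2.22% and 2.46% against 6.69%, and 0.88% and 0.78% against 4.85%).

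**Figure D3:**
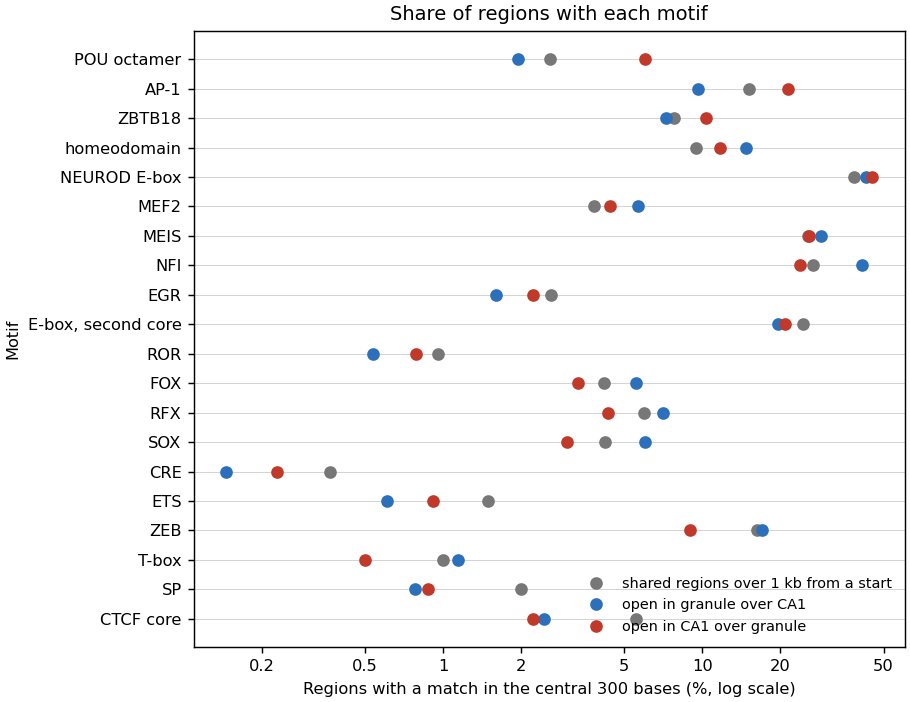
Share of regions with a match to each of 20 motifs in the central 300 bases (horizontal axis, %, log scale), for regions open in CA1 over granule neurons (red), regions open in granule over CA1 neurons (blue) and shared regions over 1 kb from a start (grey). The red point for the POU octamer lies at 6.00%, to the right of 1.95% and 2.59%, and for NFI the blue point lies at 41.2%, to the right of 23.8% and 26.7%.

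The position of the matches within the regions set the motifs apart further. POU octamer matches in the 8781 regions were 3.24 times as dense within 50 bases of the centre as at 400 to 500 bases (14.1 against 4.36 matches per 1000 regions in 50 bases), while the ratio was 1.48 over all shared regions and 0.727 in the granule-over-CA1 set. For AP-1 the ratios were 3.16, 2.13 and 1.21. NFI matches were most central in the granule set, with 4.22 against 2.10 in the CA1 set. ZEB matches were depleted at the centre of the CA1 set, with a ratio of 0.409 against 0.806 over all shared regions.

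**Figure D4:**
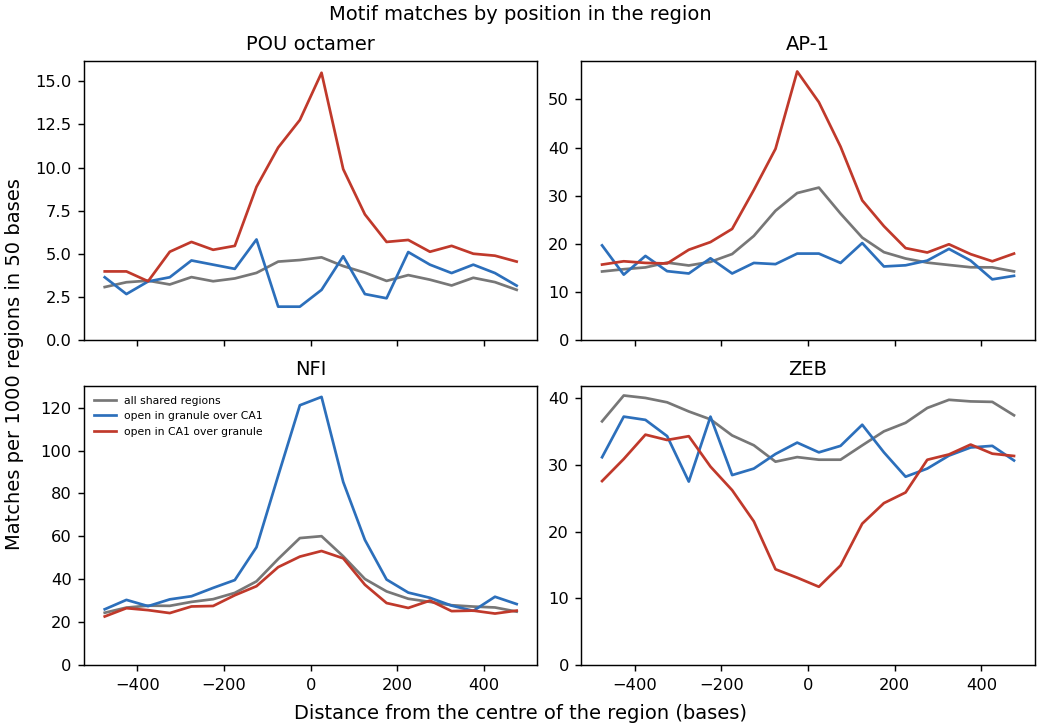
Matches per 1000 regions in 50 bases (vertical axis) against distance from the centre of the region (horizontal axis, bases) for the POU octamer, AP-1, NFI and ZEB, in regions open in CA1 over granule neurons (red), regions open in granule over CA1 neurons (blue) and all shared regions (grey). The centre to flank ratio of the red line is 3.24 for the POU octamer, 3.16 for AP-1, 2.10 for NFI and 0.409 for ZEB.

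Motif shares also varied with base composition. The octamer was present in 9.01%, 6.09%, 3.43% and 1.56% of the CA1 set in bins of under 40%, 40 to 45%, 45 to 50% and at least 50% G and C, against 4.83%, 3.37%, 2.39% and 1.19% of all shared regions in the same bins. It was more common in the CA1 set in each bin, with the smallest gap in the last. AP-1 ran from 22.9% to 19.1% in the CA1 set and from 17.9% to 10.3% over all shared regions. ZEB rose from 5.43% to 18.6% in the CA1 set and from 7.86% to 21.5% over all shared regions, and was rarer in the CA1 set in each bin.

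The octamer share was also set out by the size of the ratio, as a description, since the ratio to granule nuclei is what the choice used and the bins were not matched for G and C content. By that ratio the octamer was present in 4.56% of regions with a ratio of 4 to 5, 6.04% at 5 to 6, 7.26% at 6 to 8, 8.90% at 8 to 12 and 10.9% (11 regions) from 12. By ratio to CA3, whose numerator is the CA1 level that the choice used, it was present in 242 regions (11.5%) at 4-fold or more, 182 (6.94%) at 2 to 4-fold and 103 (2.54%) below. The NEUROD E-box went the other way, with 38.7%, 43.0% and 50.01% in these 3 parts, and AP-1 stayed at 19.4%, 22.5% and 21.7%. Octamer matches were thus most frequent where CA1 exceeded CA3 most, and NEUROD E-boxes where it exceeded CA3 least. Pou3f1 was itself one of the genes that defined CA1 nuclei, and 1 region of the set lay 7.81 kb from its start.

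RNA of the genes nearest to the regions was compared between the same CA1 and granule nuclei. The nuclei are those that chose the regions, so the calls below are read as a description beside their background. The 8781 regions were nearest to the starts of 4418 protein-coding genes, 2989 of which had enough UMIs for edgeR's quasi-likelihood fit with the library as a block, after the 9 genes of the class rules were left out. A gene was called at an adjusted p under 0.05 and a fold change of at least 1.2. Over all 13087 genes fitted, 17.8% were called higher and 19.4% lower in CA1 nuclei. The sizes below depended on the nuclei over the doublet score, since without them the log2 difference was further from 0 in 51 of 51 genes followed, by a median of 0.70, and moved by over 1.5-fold in 29. The SEs cover the spread between libraries and not this choice.

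Genes near more of these regions were more often higher in CA1 RNA. Of 10098 genes with no such region 13.4% were called higher and 19.4% lower, and with 1 region 365 of 1639 (22.3%) were higher and 343 lower. With 2 to 4 regions 433 of 1051 (41.2%) were higher and 209 lower. With 5 or more regions 180 of 299 (60.2%) were higher and 26 (8.70%) lower, and the median log2 difference was 0.48, against -0.02 over all genes. With no filter on low counts, where 10.4% of all genes were called higher, 185 of 342 genes with 5 or more regions were called higher and 28 lower. Of 738 genes with only granule-over-CA1 regions 78 were higher and 321 lower. Of 976 genes with regions of both kinds 282 were higher and 313 lower. Of 2013 genes with only regions of the CA1 set 696 were higher and 265 lower.

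**Figure D5:**
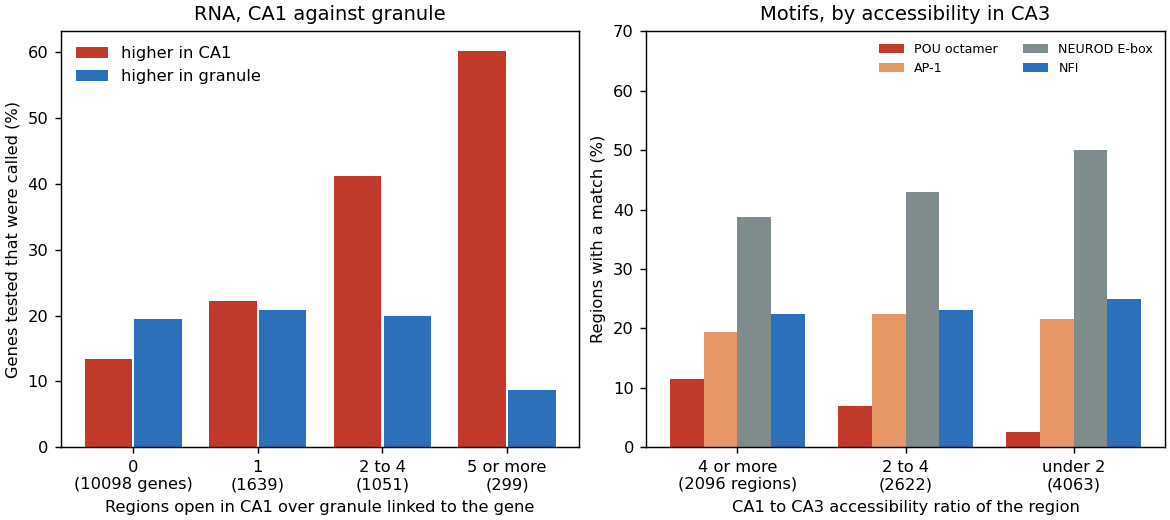
Left, share of genes called higher in CA1 (red) or in granule nuclei (blue) in RNA (vertical axis, %) by the number of regions open in CA1 over granule neurons nearest to the gene, with genes fitted in parentheses; the red bars run from 13.4% to 60.2%. Right, share of these regions with a motif (vertical axis, %) by their CA1 to CA3 accessibility ratio, where the POU octamer falls from 11.5% to 2.54% and the NEUROD E-box runs from 38.7% to 50.01%.

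The genes with the most regions are described next with their RNA. Ntm, the adhesion protein neurotrimin, had 21 regions among 151 shared regions, and its RNA stood at 1325 and 1428 CPM (MF) and 1388 and 1489 CPM (HF) in CA1 nuclei against 288, 368, 422 and 442 CPM in granule nuclei in the same order (log2 difference 2.05, SE 0.074, and 3.76 without nuclei over the doublet score). Cntnap2, a neurexin-related protein that clusters potassium channels, had 20 regions, with 6239 to 6677 CPM in CA1 and 1140 to 1554 CPM in granule nuclei (log2 difference 2.35, SE 0.068). Khdrbs3, a splicing factor that acts on neurexin transcripts, Chrm3, a muscarinic acetylcholine receptor, and Nrxn3, a presynaptic neurexin, had 19 regions each. Their RNA differed by 2.12 (SE 0.065), 2.40 (SE 0.068) and 1.90 (SE 0.066) on the log2 scale. The libraries of both classes did not overlap for any of these genes, and how often this held over all genes fitted was not counted.

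Tenm4 had 18 regions, Cdh11 17, and Adgrl2, Pde4d and Ldb2 16 each. Adgrl2, a latrophilin that CA1 neurons use at entorhinal synapses, had 188 to 228 CPM in CA1 and 35.3 to 51.0 CPM in granule nuclei (log2 difference 2.42, SE 0.087). The LIM domain-binding factor Ldb2 differed by 2.17 (SE 0.099), with 16 of its 39 shared regions in the set. Tenm4 differed by 1.29, the cadherin Cdh11 by 0.69 and the phosphodiesterase Pde4d by 0.61, all higher in CA1. All 10 genes with the most regions were called higher in CA1 RNA, over a range of 0.61 to 2.42. Ndst3, a heparan sulfate sulfotransferase, had the highest share among genes with 5 or more regions, 14 of 25 (56.0%), and differed by 2.63 (SE 0.097). A high share did not always go with RNA, as the gene with the next highest share, Dmac1 (5 of 10 regions), differed by -0.27 (SE 0.13) and was not called, and Colec10 (5 of 11) had at most 1.02 CPM in any CA1 library.

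Among linked genes called higher, the greatest differences were those of Stac (3.04, SE 0.12), Sult5a1 (3.005, SE 0.37), Ephb3 (2.90, SE 0.30), Cpne8 (2.85, SE 0.082) and Lrmp (2.84, SE 0.23). Stac, an adaptor of voltage-gated calcium channels, had 7 regions and stood at 78.6 to 123 CPM in CA1 against 8.28 to 18.9 CPM in granule nuclei. Sult5a1 had only 3.66 to 6.62 CPM in CA1 nuclei, so its fold is imprecise. The greatest falls were those of Adarb2 (-4.07, SE 0.12), Npnt (-4.05, SE 0.18), Glis3 (-4.02, SE 0.092), Stxbp6 (-3.71, SE 0.080) and Stk32b (-3.66, SE 0.33), which had 1 to 3 regions each. Stxbp6, a SNARE-binding protein, had 3 regions open in CA1 over granule neurons and 8 open the other way, so the nearest gene did not always follow the region.

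Of the CA1 genes outside the class rules, 5 of 6 had a region of the set, 26 in all, and 5 of 5 were called higher. Man1a had 14 regions and differed by 2.20 (SE 0.088) and Mpped1 5 regions and 2.48 (SE 0.10). Lefty1 had none and was still higher (1.94, SE 0.25). Of the granule genes, Stxbp6 and Glis3 had 4 regions between them, and both were lower in CA1. Among the genes of the class rules Gm2115 had 3 regions, Wfs1 2, and Wnt2 and Pou3f1 1 each, while Prox1 had none and 26 of its 49 shared regions were open in granule over CA1 neurons.

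Of 47 transcription factors of forebrain excitatory neurons, 27 had a region of the set, and of these 15 were called higher and 7 lower in CA1 RNA. Of the 20 with no region 5 were higher and 12 lower. Meis2, a TALE homeodomain factor, had 4 regions and differed by 1.81 (SE 0.083), Sox5 5 regions and 1.43 (SE 0.070), and Foxp1 6 regions and 1.10 (SE 0.062). Pou3f3, a POU factor of cortical neurons, had 7 regions, with 26.8 to 38.5 CPM in CA1 and 20.8 to 26.0 CPM in granule nuclei (log2 difference 0.70, SE 0.10). Mef2c, an activity-dependent factor, had 4 regions in the CA1 set and 7 in the granule set and was lower by -1.71 (SE 0.076). Zbtb20, required for hippocampal identity, was lower by -1.25 (SE 0.059) with 2 and 5 regions.

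Glutamate receptor genes were counted in the same way. Of 16 with a region of the set that were fitted 11 were called higher and 2 lower, and of 8 without a region 1 was higher and 4 lower. Gria3, an AMPA receptor subunit, had 4 regions and differed by 0.79 (SE 0.061). Grin3a, an NMDA receptor subunit, had 2 regions and differed by 1.14 (SE 0.10), and Grm8, a presynaptic metabotropic receptor, had 3 and differed by 1.37 (SE 0.13). The kainate receptor gene Grik3 was lower by -1.38 (SE 0.11) with 1 region.

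Potassium channel genes were the longest list of ion channels. Of 26 genes fitted with a region 14 were called higher and 6 lower, while of 36 without a region 6 were higher and 20 lower. Kcnn2, the SK2 channel of the afterhyperpolarization, had 7 regions, with 589 to 682 CPM in CA1 and 169 to 242 CPM in granule nuclei (log2 difference 1.74, SE 0.072). Kcnc2 had 6 regions and differed by 1.85 (SE 0.067), and Kcnh7, an ERG channel, 5 regions and 1.79 (SE 0.070). Kcnk1, a leak channel, was lower by -1.61 (SE 0.080) with 1 region.

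Guidance and adhesion genes, which wire neurons to their targets, had 198 regions in all. Of 47 fitted with a region 20 were called higher and 16 lower, and of 47 without a region 8 and 13. Efnb2, the ephrin-B2 ligand, had 14 regions and differed by 1.04 (SE 0.099). Epha6, an ephrin receptor, had 6 regions and differed by 1.59 (SE 0.064), with 5265 to 5705 CPM in CA1 against 1796 to 2250 CPM. Plxna1, a semaphorin receptor, had 5 and differed by 1.93 (SE 0.14). The cadherin gene Cdh6 was higher by 2.14 (SE 0.18) with 6 regions in the CA1 set and 7 in the granule set, whereas Cdh9, a cadherin of mossy fibre synapses, was lower by -2.75 (SE 0.085) with 1 and 9. Whether listed genes with and without a region differed from each other was not tested.

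Maternal diet was compared within CA1 nuclei. The choice of regions did not use this contrast directly, but it asked for the ratio in each diet from the same CA1 cuts. A region much less open in CA1 nuclei of either diet could thus be left out of the set. The values of the set below are limited by this, and those of all shared regions are not. By edgeR's quasi-likelihood test over 127669 shared regions none was called at an adjusted p under 0.05, and 3.94% had an unadjusted p under 0.05 (DESeq2 called none, with 1102 at an unadjusted p under 0.05). Among the 8780 of the 8781 regions tested none was called (a background of 0%), 316 (3.60%) had an unadjusted p under 0.05, and DESeq2 called none, with 53 at an unadjusted p under 0.05. Their median log2 difference of HF from MF was -0.06, with 3675 (41.9%) higher in HF. The values were 0.00 and 50.1% over all shared regions tested. They were 0.08 and 57.0% over the 788 regions tested of the granule-over-CA1 set. The rest of its 4112 regions had too few CA1 cuts for the filter, so these values cover only the part with more CA1 cuts. Without MF replicate 2, 46 shared regions were called, 1 of them in the set. On simulated counts of these libraries the test recovered 1.49% of 1.5-fold, 26.9% of 2-fold and 87.9% of 4-fold changes. These changes were placed only in regions with more cuts per library than a median region of the set, which had 40 to 47. Recovery in regions with fewer cuts was not simulated. Most differences of 2-fold or less would thus be missed with 2 libraries per diet.

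Among the regions of the set, and not among all shared regions, the one with the smallest p lay 4.40 kb from the start of Aga, a lysosomal amidase gene (chr8:53506864-53507802). Its CA1 level was 7.09 and 6.63 CPM in MF1 and MF2 and 2.11 and 2.12 CPM in HF1 and HF2 (edgeR log2 difference -1.67, SE 0.43, unadjusted p = 0.000269, adjusted p = 0.9998). With CA1 nuclei taken at 4 or more markers the difference was -1.05. The diets did not overlap there, but 0% of regions passed the adjusted threshold and this region was picked for its p. The region nearest Slc35c2 (chr2:165265890-165267317) had 3.96, 1.74, 4.72 and 11.0 CPM in the same order of libraries (log2 difference 1.46, and 0.76 without HF replicate 2 to 2.20 without MF replicate 1), and the region nearest Smc2 (chr4:51888996-51889949) had 8.58, 12.9, 4.23 and 5.29 CPM. The share of CA1 cuts within the set was 7.38% ± 0.37 in MF and 7.02% ± 0.28 in HF (SD, n = 2), with p = 0.667 by a two-sided exact permutation test whose smallest possible p is 0.333.

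In RNA of CA1 nuclei none of 12863 genes was called between the diets at an adjusted p under 0.05 and a 1.2-fold change (0%), while 2.20% had an unadjusted p under 0.05 (DESeq2 called none, with 81 at an unadjusted p under 0.05). Among 2956 genes nearest to the regions none was called by edgeR, with 3.42% at an unadjusted p under 0.05, and DESeq2 called none, with 44. In simulated counts the fit recovered 4.48% of 1.5-fold, 49.3% of 2-fold and 100% of 4-fold changes. These changes were placed only in genes with many UMIs per library, and recovery in genes with fewer was not simulated. With no filter on low counts 21 genes were called, 8 of them nearest to the regions. In the main fit 2956 of all 12863 genes were nearest to the regions, and whether 8 of 21 exceeds such a share was not tested.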

How the data were processed

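Nuclei of the hippocampus were profiled with the 10x Genomics multiome kit in 4 libraries, each deposited as a gene expression and an ATAC sample. The authors aligned reads to mm10 with Cell Ranger ARC 2.0.1, per the labels' processing notes, and deposited raw counts per nucleus (RNA UMIs per gene and Tn5 cuts per peak) with peaks called in each library, so peaks were merged here. A peak's count and its width differ between libraries. Libraries had 39223075 to 47460174 UMIs and 79982157 to 113105243 cuts.

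Following the study, a nucleus was kept when it had 500 to 7000 genes and less than 2% of UMIs from mitochondria. It also had 1000 to 70000 cuts (2249 to 3473 nuclei per library). The study sets these ATAC numbers on unique reads. Cuts came mostly in pairs, so the upper limit on cuts may be stricter than that of the study. The study's limits on nucleosome signal and start site enrichment need fragments and were not applied. Scrublet in scanpy 1.11.5 gave doublet scores with an expected rate of 0.03, and nuclei over 0.05 were left out only in an alternative. Counts were summed per library and class, and a region's level is its cuts per 1000000 cuts of the class in shared regions. Ratios were taken on cuts pooled by diet.

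Tests used edgeR 4.0.16 in R 4.3.3 (quasi-likelihood, TMM, filterByExpr, Benjamini-Hochberg over all regions or genes) on all features, and DESeq2 1.42.0 as an alternative. The scripts were tested on simulated data. Samples were grouped by diet from their labels. Each region was linked to the nearest protein-coding start, which need not be its target, and motifs were matched as exact letters, MEF2 as a degenerate pattern. The named regions were those with the highest ratio, most cuts, nearest the threshold, smallest diet p and at starts of listed genes, and the named genes were those with the most regions, the greatest RNA differences and list members, some of which are not reported here. Members of the set and the gene lists were chosen with earlier results of these data known. Alternatives covered the tool, size factors, filters, doublets, markers, fold, motif window, linking, replicate block and each library left out.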

Additional observations from a re-analysis of the deposited data

How the results depend on the processing

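The number of regions open in CA1 over granule neurons depended on the fold (15071 at 3-fold, 899 at 8-fold), on doublets (14542 without nuclei over the score) and on the limits for nuclei (625 with none, and 4866 without the maximum of cuts, an alternative chosen after seeing the data). Leaving out each library gave 7771 to 8287. Across alternatives of the set, the POU octamer share ran from 5.17% at 3-fold to 11.8% with no limits for nuclei. It was 6.00% in the main set and 9.12% at 8-fold. By window, the main set had 4.52% in the central 200 bases and 11.7% over whole regions. Linking genes within 50 kb or by gene body lowered the linked genes lower in CA1 from 578 to 298 and 280, since fewer genes were linked. Without a low-count filter CA3 against inhibitory nuclei gave 50175 calls, among them 2941 and 403 of the regions, since more regions were tested.

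For diet the main fits called 0 regions and 0 genes. With the replicate number as a block, 9 regions and 1 gene were called, and none of these regions was in the set. Numbers pair nothing in the labels, and with only 2 pairs the correlation of deviations was 0.020 in the regions and 0.204 in RNA. Leaving out each library gave 3 to 46 regions (0 to 1 in the set) and 0 to 6 genes (0 to 2 linked), where the lone library of a diet is assumed to vary like the others. Without a low-count filter 21 genes were called (8 linked, where 2956 of the 12863 genes of the main fit were linked). The causes were not tested. Of the counts recomputed, 93 stayed within 1.5-fold of the main value and 25 did not, and of the named values 606 kept their direction and side of the threshold (or, for untested shares, lay within the spread), although RNA differences moved by over 1.5-fold in 29 of 51 genes without doublets and in 4 with 4 or more CA1 markers, and 7 shares moved, none of them with a change of sign. Few nuclei per class and 2 libraries per diet limit the precision.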

Other observations

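Of the 299 genes fitted with 5 or more regions open in CA1 over granule neurons, 26 (8.70%) were called lower in CA1 RNA, against 19.4% of all genes fitted. Ryr2, the calcium release channel of the endoplasmic reticulum, had 13 such regions and differed by -0.63 (SE 0.057) on the log2 scale. Kirrel3, an adhesion protein of mossy fibre synapses, had 8 regions in this set and 10 in the granule-over-CA1 set, with 433 to 639 CPM in CA1 and 1162 to 1910 CPM in granule nuclei. Cxcl12, a chemokine of the DG, had 5 regions in this set and none in the granule-over-CA1 set, with 2.05 to 4.74 CPM in CA1 and 11.4 to 26.2 CPM in granule nuclei (log2 difference -2.44, SE 0.20). Eya1, a phosphatase and transcriptional coactivator, had 5 regions and differed by -1.41 (SE 0.14). These genes were chosen after their values were seen, and the nearest start need not be the gene that a region serves.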
